A study of Homo sapiens with 16 samples.

Results

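E2+(2R,6R)-HNK and (2S,6S)-HNK were the 2 treatments, of the 8 applied to HMC3 cells, whose mean expression profiles lay closest to each other. They were chosen for that reason from the 28 possible pairs of treatments, by the distance between mean log2 CPM (counts scaled to a common library size) over all genes tested, and 4 of the 16 RNA-seq libraries belong to them, 2 for each treatment. The cells of the first treatment received 0.1 nM estradiol (E2) together with 400 nM (2R,6R)-hydroxynorketamine (HNK), and the cells of the second received 400 nM (2S,6S)-HNK without E2, both for 24 h. The 2 HNK compounds are enantiomers, that is, mirror images of each other, and both are metabolites formed from ketamine. The other 6 treatments were vehicle, E2 alone, ketamine alone, (2R,6R)-HNK alone, E2+ketamine and E2+(2S,6S)-HNK, at the same concentrations, and they are used below only to place the pair. All cells were kept in charcoal-stripped serum and then without serum before treatment, and were treated in medium free of serum and phenol red. The pair differs in the enantiomer and in E2 at once, so within the pair the contributions of E2 and of the enantiomer cannot be told apart. The labels do not say that the 2 libraries of a treatment came from separate cultures, so the p-values below measure only the spread between these libraries, which may be technical.

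HMC3 is an established line labelled as human microglial. Of 17 microglial marker genes, 15 were under 1 CPM in all 4 libraries and 7 had no read in any of them (CX3CR1, PTPRC, TYROBP, C1QA, C1QB, C1QC and SALL1), while CD68 was at 21.1 to 23.4 CPM. The 12 markers of fibroblasts and mural cells summed to 7426 and 7580 CPM with E2+(2R,6R)-HNK and to 6971 and 7484 CPM with (2S,6S)-HNK, most of it COL1A1, the main chain of type I collagen. TAGLN came next, at 2018 to 2112 CPM. Of the same 12 markers COL3A1, DCN and LUM were under 1 CPM in all 4 libraries, LUM without a read in any of them. PDGFRA, RGS5 and ACTA2 were at 1.17 to 2.75 CPM. The cells are therefore called HMC3 cells here, by the name of the line. Only 4 of 17 microglial, 6 of 8 astrocyte, 4 of 8 oligodendrocyte and 4 of 6 endothelial markers had enough counts to be tested between the treatments. None of these passed the edgeR test, which 5.45% of all genes tested passed. Of 7 neuronal markers tested, TUBB3 was lower with E2+(2R,6R)-HNK (log2 fold change -0.19). Of 9 fibroblast and mural markers tested, COL1A2 and COL1A1 were higher (0.20 and 0.09). The 4 libraries held 55300614 to 75331706 counts each, and the 10 most counted genes took 8.83% to 9.08% of them.

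Of the 16 genes that passed the test with at least a 2-fold difference (0.1% of those tested), 4 were genes of zinc handling, which are described first. Metallothioneins are small cysteine-rich proteins that bind zinc and copper in the cytosol. Their genes, and the gene of the zinc exporter SLC30A1, are switched on by MTF1, a transcription factor that senses free zinc and binds short motifs called metal response elements in their promoters, whereas SLC39A10 is a zinc importer of the plasma membrane whose mRNA is known to fall when zinc is plentiful. The 250 bases before the transcription start are shown for 3 of the genes that differed most, because such elements can lie there. The sequences are RefSeq's on GRCh38.p14, written 5′ to 3′ on the strand of the gene, and capitals mark each match to the core letters TGCGCNC or TGCACNC, searched on both strands, where matches may overlap. MT1X is shown at chr16:56682220-56682469 (plus strand), MT2A at chr16:56608334-56608583 (plus strand) and SLC30A1 at chr1:211579162-211579411 (minus strand).
MT1X: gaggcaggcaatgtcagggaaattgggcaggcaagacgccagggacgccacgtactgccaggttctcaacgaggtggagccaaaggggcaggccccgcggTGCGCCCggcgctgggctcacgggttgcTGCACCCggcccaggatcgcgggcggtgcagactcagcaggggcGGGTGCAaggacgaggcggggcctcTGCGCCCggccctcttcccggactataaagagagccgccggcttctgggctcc
MT2A: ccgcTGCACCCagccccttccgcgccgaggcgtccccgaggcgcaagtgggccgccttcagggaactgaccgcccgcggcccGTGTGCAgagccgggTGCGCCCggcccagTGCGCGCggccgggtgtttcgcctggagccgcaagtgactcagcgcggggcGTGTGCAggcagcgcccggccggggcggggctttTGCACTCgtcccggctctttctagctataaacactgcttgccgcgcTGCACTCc
SLC30A1: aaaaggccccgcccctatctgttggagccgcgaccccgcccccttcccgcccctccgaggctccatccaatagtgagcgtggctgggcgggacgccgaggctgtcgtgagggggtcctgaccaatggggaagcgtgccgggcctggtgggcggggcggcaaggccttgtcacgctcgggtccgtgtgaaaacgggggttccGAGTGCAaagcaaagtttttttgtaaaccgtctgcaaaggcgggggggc
These windows held 4 matches in MT1X, 7 in MT2A and 1 in SLC30A1, and the windows before both annotated starts of SLC39A10 held 0. Bases after the start or farther before it were not searched, so a match there would be missed. The promoter source used had no entry for MT1E and MT1F, so their windows were not searched. Among the zinc genes that did not pass, SLC30A2 held 3, SLC30A3 2, and SLC30A4, SLC30A6, SLC39A3 and SLC39A6 1 each, and SLC39A7, which passed, held 0. At least 1 match was present in 24.8% of the 35116 promoters of the same length in the table and in 32.8% of the 11212 tested genes found there by symbol, and 4 or more in 0.370% and 0.482%. A match is a description of the letters and not evidence of binding.

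The distance between E2+(2R,6R)-HNK and (2S,6S)-HNK was 35.8 (Euclidean, over 16004 genes). The next pair, E2 and (2R,6R)-HNK, was 38.2 apart, and the farthest, vehicle and E2+ketamine, 87.5. This value chose the pair and is a description. Differences between replicate libraries alone would place the 2 means 33.3 apart. The 2 libraries of E2+(2R,6R)-HNK were 42.8 from each other and those of (2S,6S)-HNK 50.9, and each (2S,6S)-HNK library lay nearer to an E2+(2R,6R)-HNK library (49.6 and 47.6) than to its own replicate. Genes under 1 CPM, 3248 in number, supplied 81.95% of the squared distance. The rank of the pair is not fixed: it was 2 of 28 over the 500 most variable genes, and with any 1 of the 4 libraries left out it was between 2 and 6, the last without (2S,6S)-HNK replicate 2.

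**Figure D1:**
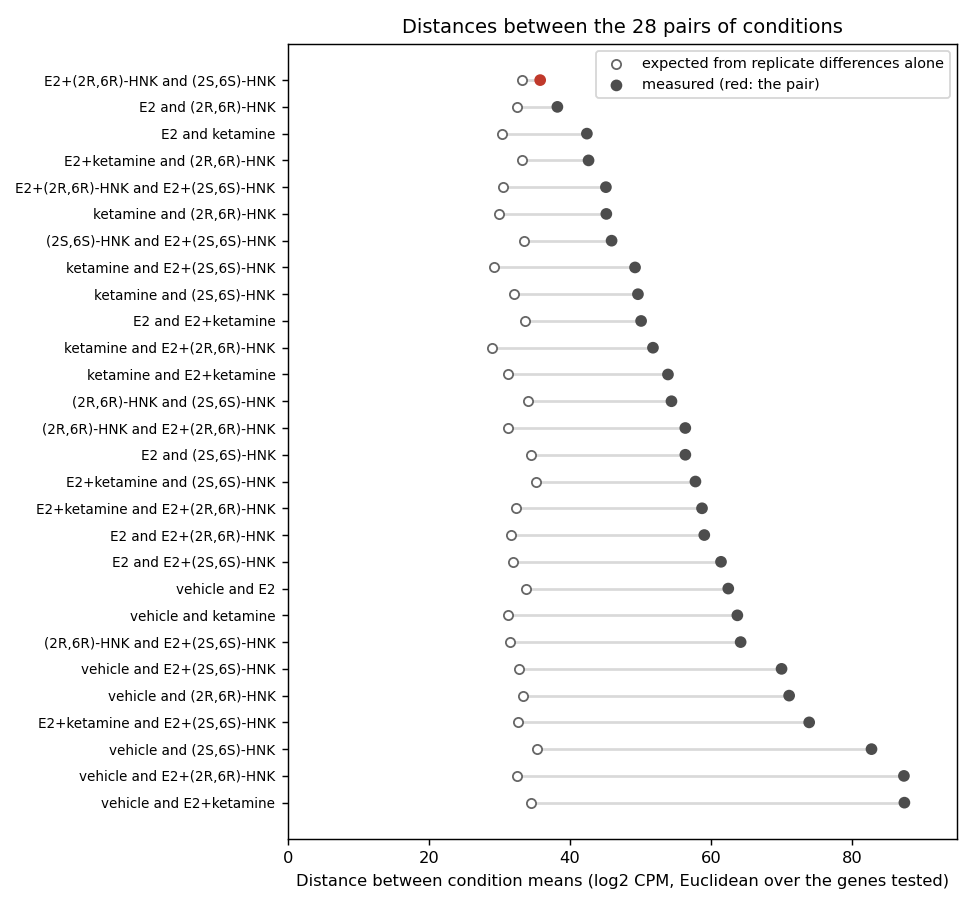
Distance between the mean log2 CPM of each of the 28 pairs of treatments (filled points, the pair in red) and the distance that differences between replicates alone would give (open points). E2+(2R,6R)-HNK and (2S,6S)-HNK, at 35.8, lie closest to their open point at 33.3.

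Most of what differed was small. A gene is said here to have passed when its adjusted p was under 0.05 in the quasi-likelihood test of edgeR, adjusted by Benjamini-Hochberg across the 16004 genes tested, and to have been called when it also differed at least 2-fold. Between the treatments 16 genes were called (0.1% of those tested), 8 higher and 8 lower with E2+(2R,6R)-HNK, and 872 passed at any fold (5.45%), 354 higher (2.21%) and 518 lower (3.24%). As the pair was chosen for its small distance over the same values, nothing is read from how few these are. Of the 872 genes, 840 differed by less than 1.5-fold, and their median absolute log2 fold change was 0.15, against 0.09 over all genes tested. Of the 841 that had a mean of at least 5 CPM, only MT1E, MT1X and IFITM1 differed by 2-fold or more. The genes that were lower had a median GC content of 44.4% and those that were higher 55.1%, beside 48.7% over all genes tested, and the part of GC content in these differences was not tested beyond a correction for GC and length. With that correction 1198 genes passed, 268 higher and 930 lower, so that the share of lower genes went from 59.4% to 77.6%. Of the 872 genes, 640 were among these 1198. Upper-quartile scaling gave 434 higher and 452 lower (51.0% lower), and the 4 libraries alone 354 and 416 (54.0%). The number that passed also depended on single libraries, being 286 without E2+(2R,6R)-HNK replicate 1, 357 without its replicate 2 and 400 without (2S,6S)-HNK replicate 1. The number called was 9 and 10 without the E2+(2R,6R)-HNK replicates in turn and 24 without (2S,6S)-HNK replicate 2.

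**Figure D2:**
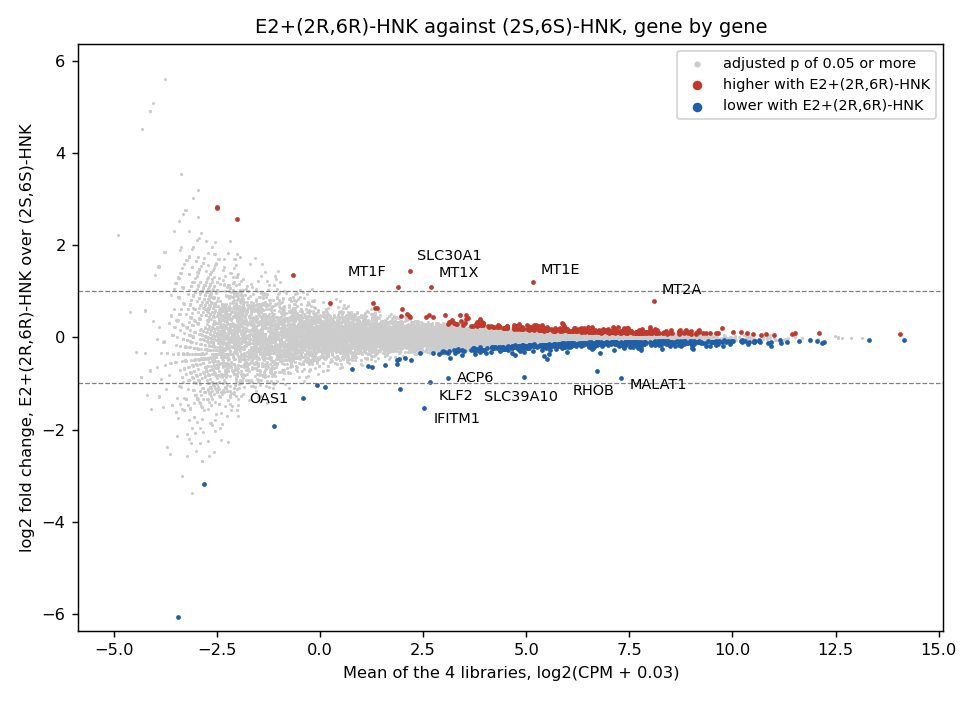
Log2 fold change of every tested gene between E2+(2R,6R)-HNK and (2S,6S)-HNK against its mean over the 4 libraries, as log2(CPM + 0.03). Coloured points passed (354 higher in red, 518 lower in blue), dashed lines mark 2-fold, and SLC30A1 and the metallothioneins that passed stand above the band of well-counted genes.

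The metallothioneins MT1E, MT1F, MT1X and MT2A, the zinc exporter SLC30A1 and the zinc importers SLC39A10 and SLC39A7 differed between the treatments. MT1E (chr16:56659387-56661024, all positions from here on GRCh37) was at 49.4 and 50.8 CPM with E2+(2R,6R)-HNK and at 21.8 and 21.5 CPM with (2S,6S)-HNK, a log2 fold change of 1.21 ± 0.05 (SE). MT2A (chr16:56642496-56643409), the most abundant metallothionein mRNA of these cells, was at 344 and 353 CPM against 199 and 202 CPM, a log2 fold change of 0.80 ± 0.03. Both genes were higher in each E2+(2R,6R)-HNK library than in either (2S,6S)-HNK library, by edgeR adjusted p of 1.16e-25 and 5.39e-27. MT1X (chr16:56716382-56718108) was at 8.81 and 8.73 CPM against 4.29 and 3.99 CPM, and MT1F (chr16:56691643-56694610) at 5.003 and 5.055 CPM against 2.30 and 2.43 CPM, log2 fold changes of 1.08 ± 0.11 and 1.09 ± 0.13. The MT1 genes are near-identical copies, and the counting of uniquely mapped reads may divide their reads unevenly, so the level of each is uncertain. SLC30A1 (chr1:211744910-211752503), which pumps zinc out of the cell, was at 6.34 and 6.90 CPM against 2.57 and 2.27 CPM, a log2 fold change of 1.45 ± 0.12 and the largest among the zinc genes that passed. SLC39A10 (chr2:196440701-196602426) went the other way, at 21.9 and 21.3 CPM against 40.4 and 38.6 CPM, a log2 fold change of -0.87 ± 0.05. The groups did not overlap for any of the 6 genes, and each of them passed in every alternative that gave an adjusted p. SLC39A7, which releases zinc from the endoplasmic reticulum, was 0.15 higher on the log2 scale.

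Of the 36 genes listed as metallothioneins, zinc transporters and MTF1, 28 were tested, of which 6 passed as higher and 1 as lower (25.0%, against 5.45% of all genes). The median log2 fold change of the 28 was 0.07, beside -0.0018 over all genes tested. MTF1 itself was at 22.7 and 25.0 CPM against 23.2 and 23.5 CPM, a log2 difference of 0.03 with a 95% interval from -0.09 to 0.15. The zinc transporters SLC39A1, SLC39A14, SLC39A13 and SLC39A9 differed by -0.05, -0.01, -0.01 and 0.01 and did not pass. MT3, MT1A and MT1G were under 1 CPM in all 4 libraries, and SLC30A2 had 6 and 3 counts against 0 and 0.

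The place of the pair among the 8 treatments differed from gene to gene within the zinc group. MT1E was highest with E2+ketamine (127 CPM) and (2R,6R)-HNK (118 CPM), followed by vehicle (75.3), E2 (58.5), ketamine (52.1), E2+(2R,6R)-HNK (50.1), (2S,6S)-HNK (21.6) and E2+(2S,6S)-HNK (18.4), as means of 2 libraries each. Ketamine and E2+(2R,6R)-HNK did not differ beyond the spread of their libraries in that order, and every other neighbour was separated. MT2A had the same 2 treatments at the top (523 and 480 CPM) and the same 2 at the bottom, (2S,6S)-HNK at 201 CPM and E2+(2S,6S)-HNK at 163 CPM. SLC39A10 was highest with E2+(2S,6S)-HNK (50.9 CPM), followed by (2S,6S)-HNK and ketamine (39.5 CPM each), vehicle (35.9), E2 (25.4), E2+(2R,6R)-HNK (21.6), (2R,6R)-HNK (18.0) and E2+ketamine (17.0). Against vehicle, MT1E was lower in both treatments of the pair, with log2 fold changes of -0.59 in E2+(2R,6R)-HNK cells and of -1.80 where (2S,6S)-HNK was given. MT2A was higher in the first (0.22) and lower in the second (-0.58).

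**Figure D3:**
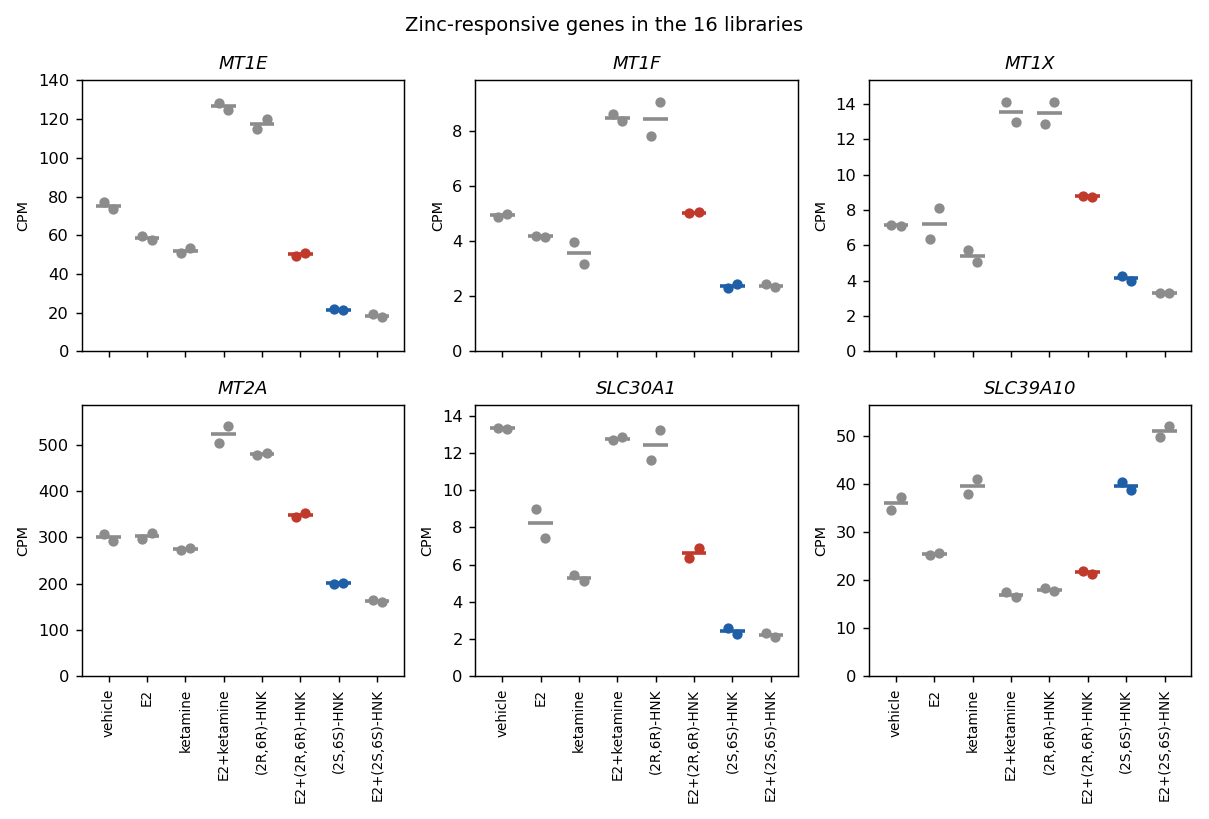
CPM of 6 zinc genes in each of the 16 libraries, 2 points per treatment with a bar at their mean, E2+(2R,6R)-HNK in red and (2S,6S)-HNK in blue. In 5 panels the red points lie above the blue ones, as for MT1E at 49.4 and 50.8 against 21.8 and 21.5 CPM, and for SLC39A10 they lie below.

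The remaining treatments with HNK at the same dose and time allow the difference within the pair to be followed along 2 routes. The comparisons on a route share libraries with the pair, and their values are given side by side only. Changing the enantiomer without E2, (2R,6R)-HNK was 2.44 ± 0.05 above (2S,6S)-HNK for MT1E, and E2+(2R,6R)-HNK against (2R,6R)-HNK then gave -1.23 ± 0.04. On the other route, E2+(2S,6S)-HNK against (2S,6S)-HNK gave -0.23 ± 0.05 and changing the enantiomer in the presence of E2 gave 1.44 ± 0.05, so that MT1E was higher with (2R,6R)-HNK than with (2S,6S)-HNK with and without E2. SLC30A1 followed the same pattern, with 2.36 ± 0.12 and 1.57 ± 0.12 for the enantiomers without and with E2, and -0.91 ± 0.10 and -0.12 ± 0.14 for E2 added to (2R,6R)-HNK or to its enantiomer, of which the last did not pass. For SLC39A10 the enantiomers differed by -1.13 ± 0.06 without E2 and by -1.23 ± 0.05 with it, and with E2 it changed by 0.27 ± 0.06 beside (2R,6R)-HNK and by 0.36 ± 0.05 beside (2S,6S)-HNK. The change with E2 differed between the enantiomers for MT1E, MT1F, SLC30A1 and MT2A by the interaction term of the same edgeR fit, and that term did not pass for MT1X (-0.29 ± 0.15) or SLC39A10 (-0.10 ± 0.08).

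The zinc genes were also measured in comparisons that use none of the 4 libraries. In the mirror pair, E2+(2S,6S)-HNK against (2R,6R)-HNK, MT1E differed by -2.67 ± 0.04, SLC30A1 by -2.48 ± 0.11, MT2A by -1.56 ± 0.03 and SLC39A10 by 1.50 ± 0.05 on the log2 scale, where 4.02% of all genes were called and 59.9% passed. E2 against vehicle gave -0.36 ± 0.04 for MT1E, -0.69 ± 0.10 for SLC30A1 and -0.50 ± 0.06 for SLC39A10, and MT2A (0.01 ± 0.03) did not pass. E2+ketamine against ketamine gave 1.28 ± 0.04 for MT1E, 1.28 ± 0.10 for SLC30A1, 0.92 ± 0.03 for MT2A and -1.22 ± 0.06 for SLC39A10. E2 thus went with less MT1E and SLC30A1 mRNA beside vehicle and with more beside ketamine.

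Among genes with a mean of at least 5 CPM, the 9 that came after the metallothioneins in the higher direction all differed by less than 1.5-fold. RAB20, a small GTPase of endocytic vesicles, was at 13.4 and 13.8 CPM with E2+(2R,6R)-HNK against 9.76 and 9.74 CPM with (2S,6S)-HNK, a log2 fold change of 0.48 ± 0.08. VASH1, a secreted inhibitor of vessel growth that also trims tubulin, was at 17.2 and 16.5 against 12.2 and 13.2 CPM (0.40 ± 0.07), and the transcription factor POU3F3 at 14.2 and 13.3 against 10.1 and 10.4 CPM (0.43 ± 0.08). These 3 genes passed under every alternative that gave an adjusted p. HTRA1, a secreted serine protease, was at 12.7 and 11.6 against 8.85 and 8.55 CPM, and SLC1A1, a transporter of glutamate and cysteine, at 7.40 and 7.19 against 5.24 and 5.22 CPM. Both were above every (2S,6S)-HNK library, with log2 fold changes of 0.49 ± 0.10 and 0.48 ± 0.11, and neither passed without E2+(2R,6R)-HNK replicate 1. PDGFRL, a receptor-like protein (0.49 ± 0.10), CA9, a carbonic anhydrase induced by hypoxia (0.45 ± 0.13), the Wnt receptor FZD9 (0.43 ± 0.13) and ITPKA, a kinase of inositol trisphosphate (0.39 ± 0.09), complete the 9, and each did not pass with at least 2 of the 4 libraries left out in turn. The size for FZD9 rests on single libraries, being 0.18 without (2S,6S)-HNK replicate 2 and 0.74 without its replicate 1, and ITPKA was at 0.25 without (2S,6S)-HNK replicate 1. FZD9 also did not pass with the GC and length correction or in DESeq2 without its independent filter. Of the exon bases of PDGFRL and CA9, 277 of 2420 and 571 of 1598 overlap exons of MTUS1 and ARHGEF39 on the opposite strand. Reads from these stretches cannot be told apart, since the counting is not stated to use strand.

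Of these 9 genes, HTRA1, SLC1A1 and CA9 had the largest changes with E2 beside (2R,6R)-HNK. HTRA1 was 1.54 ± 0.11 higher with E2 beside (2R,6R)-HNK and 0.0055 ± 0.10 beside (2S,6S)-HNK, and the difference between these changes passed. CA9 was 1.32 ± 0.13 higher with E2 beside (2R,6R)-HNK and lower beside (2S,6S)-HNK (-0.45 ± 0.13), a difference that also passed. SLC1A1 was 1.36 ± 0.12 and 0.57 ± 0.11 higher. FZD9 (0.32 ± 0.13 and -0.37 ± 0.14), VASH1 (0.43 ± 0.07 and -0.14 ± 0.08, the last not passing) and ITPKA (0.13 ± 0.09, not passing, and -0.22 ± 0.09) also differed between the enantiomers in their change with E2. Against vehicle HTRA1, SLC1A1 and CA9 were higher in both treatments of the pair, HTRA1 by 2.35 ± 0.12 and 1.87 ± 0.13, SLC1A1 by 1.75 ± 0.13 and 1.27 ± 0.13, and CA9 by 1.70 ± 0.14 and 1.25 ± 0.15 for E2+(2R,6R)-HNK and (2S,6S)-HNK.

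Among the genes that were lower with E2+(2R,6R)-HNK were 2 zinc finger transcription factors of the KLF family and a small GTPase. KLF2 (chr19:16435637-16439496), a factor that restrains inflammatory genes in endothelium and myeloid cells, was at 4.44 and 4.11 CPM against 8.56 and 8.09 CPM, a log2 fold change of -0.96 ± 0.11. RHOB (chr2:20646835-20649201), which acts on endosomes and actin and is induced by stress, was at 80.3 and 78.4 against 137 and 127 CPM (-0.74 ± 0.03), and KLF7 at 22.3 and 23.8 against 28.9 and 31.3 CPM (-0.38 ± 0.05). None of the 3 overlapped between the treatments and all passed under every alternative that gave an adjusted p, RHOB with an edgeR adjusted p of 1.18e-22. RHOB did not differ between the enantiomers without E2 (0.05 ± 0.03), and it was lower with E2 beside (2R,6R)-HNK (-0.79 ± 0.03) and beside (2S,6S)-HNK (-0.41 ± 0.03), while it was 0.48 ± 0.03 higher with E2 against vehicle and 0.31 ± 0.03 higher beside ketamine. KLF2 was lower with E2 beside both enantiomers (-0.59 ± 0.11 and -0.28 ± 0.11) and 0.45 ± 0.09 higher with E2 against vehicle. KLF7 did not differ between the enantiomers without E2 (0.00055 ± 0.05) and was lower with E2 beside (2R,6R)-HNK (-0.39 ± 0.05), with 0.02 ± 0.05 beside (2S,6S)-HNK.

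ACP6 and MALAT1 were lower by similar amounts. ACP6 (chr1:147101453-147142646), a mitochondrial phosphatase of lysophosphatidic acid, was at 5.61 and 6.41 CPM with E2+(2R,6R)-HNK against 10.9 and 11.2 CPM with (2S,6S)-HNK, a log2 fold change of -0.88 ± 0.10. It was 0.82 ± 0.10 above vehicle with (2S,6S)-HNK and -0.07 ± 0.11 from it with E2+(2R,6R)-HNK, which did not pass. MALAT1 (chr11:65265111-65275544), an abundant nuclear long noncoding RNA, was at 107 and 112 CPM against 233 and 173 CPM (-0.89 ± 0.08), the (2S,6S)-HNK libraries standing well apart from each other. Against vehicle MALAT1 was at -0.11 ± 0.08 with (2S,6S)-HNK, which did not pass, and at -1.005 ± 0.08 with E2+(2R,6R)-HNK. OTUD6B, a deubiquitinase, GLRX2, a mitochondrial glutaredoxin, and SLC7A11, the cystine carrier of glutathione synthesis, had log2 fold changes of -0.44 ± 0.09, -0.37 ± 0.08 and -0.36 ± 0.08. The last 2 did not pass without E2+(2R,6R)-HNK replicate 1 and without (2S,6S)-HNK replicate 1, where SLC7A11 was at -0.23, and the exons of OTUD6B overlap those of its antisense gene OTUD6B-AS1. MTRNR2L9 and MTRNR2L8 (-0.48 ± 0.07 and -0.40 ± 0.06) are near-copies of the gene of the large mitochondrial ribosomal RNA, and reads from that gene may be counted in them.

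**Figure D4:**
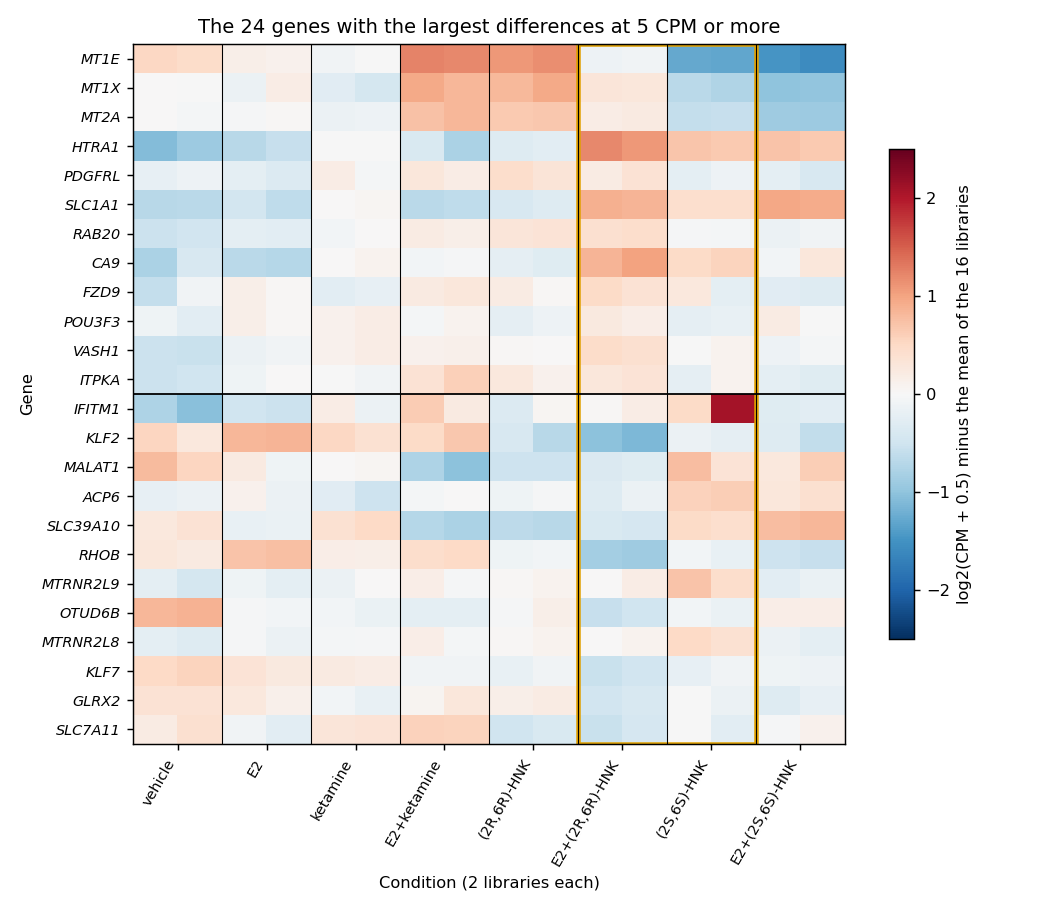
The 24 genes with the largest differences, 12 in each direction, among those that passed with a mean of at least 5 CPM, as log2(CPM + 0.5) minus the mean of the 16 libraries (red above it, blue below it), with the pair inside the yellow frame. The 12 upper genes are higher with E2+(2R,6R)-HNK, the 12 lower ones are lower, and the IFITM1 value of 13.1 CPM in (2S,6S)-HNK replicate 2 is the darkest red cell of its line.

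Interferon-stimulated genes, which encode antiviral proteins and are the pathway on which the study centred, were lower where they differed. Of 49 tested genes of that list, 8 passed, and all 8 were lower with E2+(2R,6R)-HNK (16.3%, against 5.45% of all genes), with a median log2 fold change of -0.11 over the 49. IFITM1 (chr11:310041-315272), a membrane protein that blocks virus entry, was at 2.75 and 3.16 CPM against 3.96 and 13.1 CPM, a log2 fold change of -1.53 ± 0.24. That value rests on 1 library: without (2S,6S)-HNK replicate 2 it was -0.42 and did not pass. IFI6, an antiviral protein of the endoplasmic reticulum, was at 22.1 and 22.2 against 28.8 and 27.3 CPM (-0.34 ± 0.06), and IRF9, the DNA-binding part of the factor that interferon activates, at 26.7 and 24.3 against 30.3 and 30.1 CPM (-0.25 ± 0.06). The groups did not overlap for either gene. MX1, a GTPase that traps viral nucleoproteins, was at 3.09 and 2.72 against 4.01 and 4.70 CPM (-0.59 ± 0.16), IFIT1, which binds foreign RNA ends, at 3.23 and 3.002 against 4.58 and 4.07 CPM (-0.47 ± 0.14), and OAS1, a sensor of double-stranded RNA, at 0.416 and 0.419 against 0.931 and 1.14 CPM (-1.31 ± 0.30). SP110 and IFI35 were the others that passed, at -0.26 ± 0.08 and -0.18 ± 0.05. Leaving out each of the 4 libraries in turn left 3 to 5 members passing, with MX1 lost in 3 of these fits, IFIT1 in 3 and OAS1 in 2.

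Of the 8 genes that passed, IFI6, MX1, IRF9, IFITM1 and IFI35 were above vehicle in both treatments of the pair, OAS1 and IFIT1 were above it with (2S,6S)-HNK (1.71 ± 0.32 and 0.37 ± 0.14) and did not pass with E2+(2R,6R)-HNK (0.41 ± 0.36 and -0.10 ± 0.14), and SP110 was below it in both (-0.40 ± 0.08 and -0.66 ± 0.08 in that order). On the log2 scale IFI6 was 0.87 ± 0.07 above vehicle in the E2+(2R,6R)-HNK libraries and 1.21 ± 0.07 above it in the others of the pair, MX1 0.84 ± 0.18 and 1.42 ± 0.18, and IRF9 0.65 ± 0.06 and 0.90 ± 0.06. E2 went with lower IFI6 beside both enantiomers (-0.20 ± 0.06 and -0.35 ± 0.06) and with lower MX1 (-0.97 ± 0.16 and -1.07 ± 0.17), for which the difference between the enantiomers in the change with E2 did not pass. With E2 beside (2R,6R)-HNK, 23 of the 49 genes were lower and 3 higher, where 23.8% of all genes were lower and 24.2% higher. With E2 beside (2S,6S)-HNK, 22 were lower and 4 higher, against 27.2% and 24.1% of all genes. Between the enantiomers, 16 were higher and 7 lower with (2R,6R)-HNK without E2, and 16 higher and 11 lower with E2. The median log2 fold changes over the 49 were 0.05 and -0.008. The shares of all genes passing in these 2 comparisons are not given here, so nothing is read from these counts. In libraries outside the pair, 20 were higher and 11 lower with E2 against vehicle (29.9% and 32.7% of all genes), and 18 were higher and 15 lower with E2+ketamine against ketamine (27.3% and 30.2%).

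**Figure D5:**
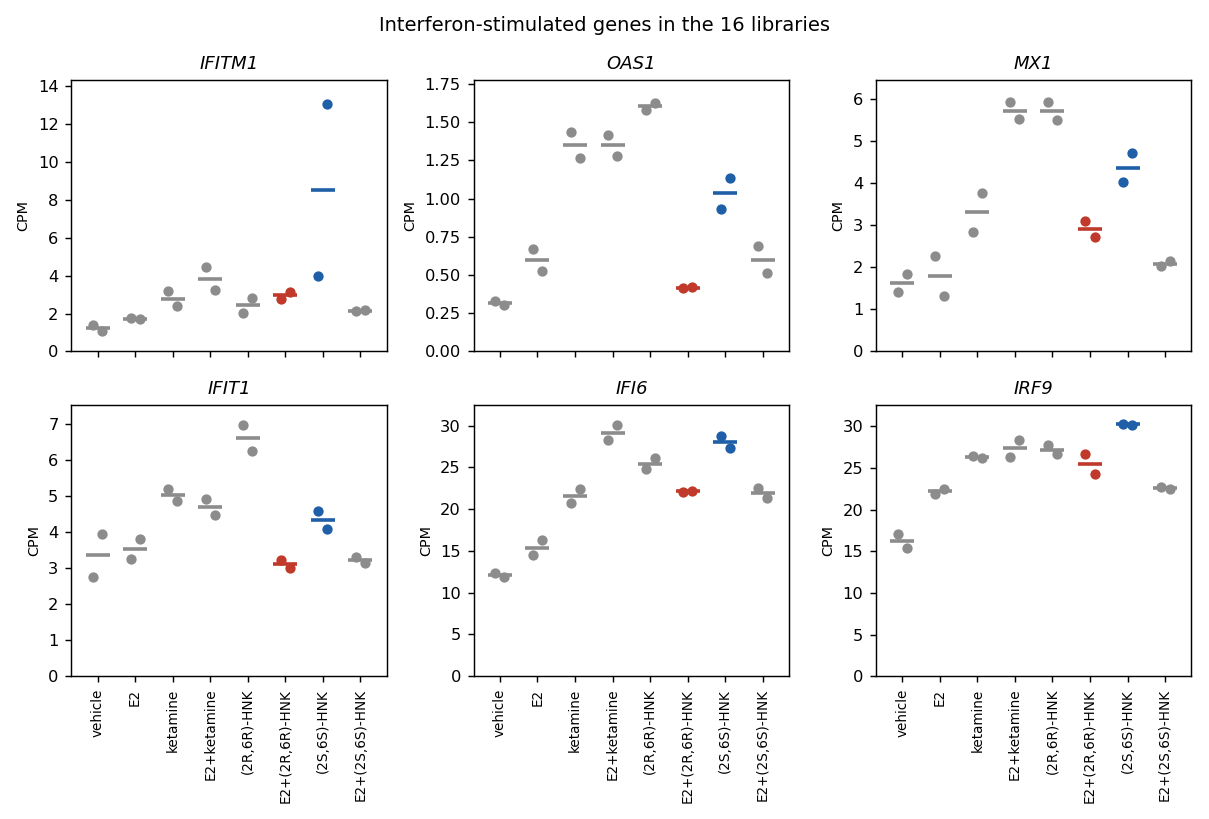
CPM of 6 interferon-stimulated genes in each of the 16 libraries, 2 points per treatment with a bar at their mean, E2+(2R,6R)-HNK in red and (2S,6S)-HNK in blue. The red points lie below the blue ones in every panel, by the least in relative terms for IRF9, and the IFITM1 panel shows the single (2S,6S)-HNK library at 13.1 CPM.

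The collagen genes that passed were slightly higher with E2+(2R,6R)-HNK. Of 22 tested collagen genes, 10 passed, all higher (45.5%, where 2.21% of all genes passed as higher), with a median log2 fold change of 0.09. COL1A2 was at 185 and 193 CPM against 160 and 169 CPM (0.20 ± 0.03), COL8A1 at 445 and 456 against 398 and 411 CPM (0.15 ± 0.02), and COL1A1, at 4434 and 4561 against 4034 and 4414 CPM, differed by 0.09 ± 0.02. The groups did not overlap for these 3. With the correction for GC and length 6 members passed in either direction, beside 1198 of all 16004 genes. The number that passed also depended on single libraries. The median GC content of the collagen list was 52.99%, and its median log2 fold change was 0.046 with that correction.

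Several housekeeping groups had members that were slightly lower. Of 46 tested heat shock proteins and chaperones 8 passed, all lower (17.4%, where 3.24% of all genes passed as lower, median -0.06), HSP90AA1 from 708 and 688 CPM with (2S,6S)-HNK to 606 and 623 CPM (-0.18 ± 0.02) and CCT2, a subunit of the chaperonin that folds actin and tubulin, by -0.13 ± 0.03. Of 77 cytosolic ribosomal protein genes 10 passed, all lower (13.0%, median -0.04), among them RPS3A at -0.13 ± 0.02. Of 24 targets of NRF2, the factor of the antioxidant response, 5 passed, all lower (20.8%, median -0.04), including thioredoxin, TXN (-0.26 ± 0.03), NQO1 (-0.21 ± 0.04) and SLC7A11. Of 51 genes of the cell cycle and DNA replication 6 were lower and 1 higher (13.7% passed), with CCNE2 at -0.29 ± 0.06 and CDK1 at -0.15 ± 0.04, the last of which did not pass with the GC and length correction (-0.046) or in 3 of the 4 fits with a library left out. Exons of CCNE2 overlap those of INTS8 on the opposite strand by 1629 bases. The median GC content of these lists was 46.1% for chaperones, 48.8% for ribosomal proteins, 48.6% for NRF2 targets and 48.3% for the cell cycle. With the correction for GC and length 13 of 46, 39 of 77, 9 of 24 and 16 of 51 members passed in either direction, beside 1198 of all 16004 genes. The median log2 fold changes were then -0.05, -0.05, -0.07 and -0.04. The numbers that passed depended on single libraries.

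Of 36 glycolysis and hypoxia targets 4 were higher and 8 lower (33.3% passed, against 5.45% of all genes, median -0.0043), with CA9 and PFKFB4 (0.20 ± 0.04), which controls glycolytic flux, in the first direction and ANKRD37 (-0.64 ± 0.17) in the second. CA9 did not pass in DESeq2 without its independent filter or in any fit with a library left out. PFKFB4 did not pass in 2 and ANKRD37 in 3 of the 4 fits with a library left out. With a library left out 1 to 10 of the 36 passed, the least without E2+(2R,6R)-HNK replicate 1, with 3 without its replicate 2 and 5 without (2S,6S)-HNK replicate 2. Of 31 immediate early genes 2 were higher and 5 lower (22.6% passed), among the latter KLF2, KLF6 (-0.23 ± 0.04) and KLF10 (-0.16 ± 0.05), of which KLF10 did not pass in 3 of the 4 fits with a library left out. Of 20 annexins and carboxypeptidases (30% passed) 1 was higher, CPZ (0.28 ± 0.09), which did not pass in DESeq2, with the GC and length correction or in any fit with a library left out, and 5 were lower, with ANXA1, a calcium-dependent membrane binder that damps inflammation, at 41.6 and 41.1 CPM against 52.2 and 53.4 CPM (-0.35 ± 0.04) and CPA4, a secreted carboxypeptidase, at 54.9 and 58.5 against 71.4 and 70.2 CPM (-0.32 ± 0.03). The groups were fully apart for ANXA1 and CPA4. Exons of CPZ overlap those of GPR78 on the same strand by 2013 bases. Exons of ANKRD37 overlap those of UFSP2 on the opposite strand by 909 bases. Of 34 ATF4 targets 2 were higher and 4 lower (17.6%), of 34 genes of cholesterol and fatty acid synthesis 4 were higher and 1 lower (14.7%), and of 28 YAP and TGF-beta contractile genes 3 were higher and 3 lower (21.4%). Of 20 genes of matrix metalloproteinases, their TIMP inhibitors and hyaluronan 4 were lower (20%), including TIMP2 at 764 and 770.5 against 829 and 858 CPM (-0.14 ± 0.02). Respiratory chain subunits had 1 higher and 5 lower of 76 (7.89%), near the share of all genes. Without E2+(2R,6R)-HNK replicate 1, 2 immediate early genes, 2 ATF4 targets, 2 of the matrix genes and 1 in each of the cholesterol, contractile and respiratory lists passed. No member passed in edgeR or in DESeq2 without its independent filter among 18 circadian clock genes, 14 complement genes and 10 glutamate receptors, of which 1, 2 and 0 had an unadjusted edgeR p under 0.05. With the GC and length correction 1 circadian clock gene and 1 complement gene passed. The same correction gave 14 ATF4 targets, 10 contractile genes, 8 cholesterol and fatty acid genes and 10 respiratory chain subunits. It gave 16 glycolysis and hypoxia targets, 9 immediate early genes, 7 annexins and carboxypeptidases and 4 of the matrix genes. These corrected counts are for either direction, and over all 16004 genes the correction gave 1198.

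The 2-fold calls below 5 CPM, besides SLC30A1, MT1F and OAS1, are TMEM169, CCDC154, IL1B and RDH16 in the higher direction and TGM5, DNAJC12, C6orf99, RMRP, MIR155HG and ACTBL2 in the lower. These counts are not scaled, and the E2+(2R,6R)-HNK libraries held 75331706 and 72264098 counts against 55300614 and 60533798 with (2S,6S)-HNK. IL1B, the cytokine interleukin-1 beta, had 24 and 14 counts with E2+(2R,6R)-HNK against 4 and 0 with (2S,6S)-HNK. MIR155HG, a host transcript of a microRNA of immune cells, had 62 and 38 against 79 and 84. Their scaled log2 fold changes were 2.81 ± 0.88 and -1.07 ± 0.26. TGM5 had 0 and 0 counts against 8 and 6, which is at least 3.02-fold lower when 3 counts per library are taken as the floor. DNAJC12 had 1 and 2 counts against 11 and 12, and RDH16 18 and 20 against 2 and 2. Counts below 10 in the 4 libraries were even numbers in 66.9% of cases, against 49.6% for counts of 500 or more. The reason was not tested, and a count this low, the floor of 3 included, may stand for fewer separate fragments than its number. Each of these 10 genes lost its call in at least 1 of the fits with a library left out.

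STAT3, SIN3A, EEF2 and BDNF, which the study also examined, did not pass. STAT3 was at 198 and 192 CPM against 189 and 191 CPM, a log2 difference of 0.04 with a 95% interval from -0.01 to 0.10. SIN3A, a corepressor that binds STAT3, differed by -0.03 (-0.10 to 0.05), EEF2, the translation elongation factor, by 0.03 (-0.0043 to 0.07) and BDNF, the neurotrophin, by -0.05 (-0.17 to 0.07). A difference larger than these bounds was not seen, and smaller ones remain possible. With a library left out SIN3A ranged from -0.068 to 0.019 and EEF2 from -0.00014 to 0.066, so the direction of both is not fixed. EEF2 passed only without (2S,6S)-HNK replicate 2. The members of the JAK, STAT and SOCS list that passed were STAT6 (-0.18 ± 0.04) and SOCS7 (0.16 ± 0.05), 2 of 23 (8.70%, against 5.45% of all genes). Neither passed with either E2+(2R,6R)-HNK library left out, nor without (2S,6S)-HNK replicate 2, where STAT6 was at -0.08. SOCS7 also did not pass with the GC and length correction or when no low count filter was used. For E2 itself, ESR1 had 0 counts in all 4 libraries, ESR2 had 17 and 28 counts against 36 and 32, and GPER1 58 and 58 against 64 and 45, none of which passed a test. Scaled for library size, the log2 fold changes were -0.95 ± 0.44 for ESR2, whose groups did not overlap, and -0.28 ± 0.27 for GPER1. Of 30 tested estrogen receptors and estrogen-responsive genes 2 passed, CTSD (0.11 ± 0.03) and STC2 (0.08 ± 0.02), 6.67% against 5.45% of all genes. STC2 did not pass in any fit with a library left out, and CTSD did not pass in 3 of these 4 fits or with the GC and length correction (0.05).

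The pair can be set beside comparisons in which only the enantiomer or only E2 changed. The pair was chosen for being close, so counts from comparisons that share its libraries are not independent of that choice. The same holds for the interaction, and these counts are a description. Without E2 the enantiomers differed in 405 genes called (2.53% of those tested), and with E2 in 106 (0.662%). E2 added to (2R,6R)-HNK gave 477 called genes (2.98%) and E2 added to (2S,6S)-HNK 112 (0.7%). In the mirror pair, E2+(2S,6S)-HNK against (2R,6R)-HNK, which holds the same 2 changes in the other combination and shares no library with the pair, 644 genes were called (4.02%). E2 against vehicle gave 290 called genes (1.81%) and E2+ketamine against ketamine 172 (1.07%), also in libraries outside the pair. With the GC and length correction these 2 counts went down to 133 and 106, and across 15363 genes the Spearman correlation of the log2 fold change with GC content was 0.76 for E2 against vehicle, 0.59 for E2+ketamine against ketamine and 0.22 for the pair, as a description of genes within these libraries. It was -0.61 for E2 added to (2S,6S)-HNK and 0.055 for E2 added to (2R,6R)-HNK, 0.67 for the enantiomers with E2 and 0.037 without it, -0.44 for the mirror pair, 0.46 for the interaction, and 0.66 and 0.65 for the treatments of the pair against vehicle. The part of GC content in these counts was not tested beyond the correction. Against vehicle, E2+(2R,6R)-HNK gave 1843 called genes (11.5%), whereas (2S,6S)-HNK gave 1453 (9.08%). The change with E2 differed between the enantiomers by at least 2-fold in 526 genes (3.29%), and at any fold in 47.2% of those tested.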

How the data were processed

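RNA was measured in 16 libraries of HMC3 cells, prepared with a kit that the study names Ovation RNA-seq system v2 and sequenced as paired reads. The deposited values are raw counts per gene. Per the submitters' processing notes, reads were aligned to hg19 with TopHat2 2.0.14 and Bowtie2 2.2.6, and the authors describe counting uniquely mapped read pairs with featureCounts 1.4.6. Strand use is not given in the sources used here.

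Counts were analysed with edgeR 4.0.16 in R 4.3.3: genes were kept by filterByExpr (16004 of 25370), scaled by TMM and fitted with glmQLFit, 1 mean per treatment over all 16 libraries and 8 residual degrees of freedom. Library totals ran from 55300614 to 81646165 counts, where 1 count was 0.0117 to 0.0182 CPM. Log2 CPM for distances used a prior count of 2. The script was tested on simulated counts. The pair, the gene lists and the rule for named genes were chosen with earlier results of these data known. Named are the 12 genes with the largest log2 fold change in each direction among passing genes whose groups did not overlap and whose mean reached 5 CPM (called genes first), up to 3 passing members of at least 1 CPM per list, 2-fold calls under 5 CPM and the genes of the study; IFI6, IRF9, IFI35, SP110, further zinc genes and further collagens were named as members of their lists. GC content and length came from GENCODE v44 lifted to GRCh37, for 96.0% of the genes tested. Alternatives were DESeq2 1.42.0, other filters and scalings, the 4 libraries alone, a replicate block, a GC and length correction, thinned or halved counts and leaving out each library. Lists are described by counts and medians, with no set test.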

Additional observations from a re-analysis of the deposited data

Results flagged for a closer look

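The change in expression with E2 differed between the enantiomers in 18 of the 26 leading genes and zinc genes of the pair, by the interaction term of the edgeR quasi-likelihood fit with Benjamini-Hochberg adjustment over all genes; 47.2% of all genes passed this term. The values are the log2 change with E2 beside (2R,6R)-HNK minus that beside (2S,6S)-HNK. They were positive for IFITM1 (2.30), CA9 (1.77), HTRA1 (1.54), MTRNR2L9 (0.85), SLC1A1 (0.79), FZD9 (0.70), MTRNR2L8 (0.62), VASH1 (0.56), ITPKA (0.36) and MALAT1 (0.31). They were negative for MT1E (-1.003), OTUD6B (-0.93), SLC30A1 (-0.79), MT1F (-0.76), GLRX2 (-0.44), KLF7 (-0.41), RHOB (-0.38) and MT2A (-0.16). For IFITM1 the value rests on a change of -1.997 beside (2S,6S)-HNK, whose 2 libraries without E2 were at 3.96 and 13.1 CPM. OTUD6B was lower with E2 beside (2R,6R)-HNK (-0.63) and higher beside (2S,6S)-HNK (0.30), and FZD9 and CA9 went the other way (0.32 and -0.37, 1.32 and -0.45).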

How the results depend on the processing

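Between E2+(2R,6R)-HNK and (2S,6S)-HNK, 16 genes were called; DESeq2 with its independent filter called 1 (its filter left 15 of the 16 without an adjusted p, and without it, an alternative chosen after seeing the data, 12 were called). A limit of 1.5-fold gave 32 and no fold limit 872, and leaving out each library gave 9 to 24. At any fold 872 genes passed, and 286 to 850 with a library left out. The rank of the pair was 2 over the 500 most variable genes and 2 to 6 with a library left out. The mirror pair went from 644 to 414 with at least 10 counts in every library, E2 against vehicle from 290 to 180, and E2+ketamine against ketamine from 172 to 76. With the GC and length correction the last 2 gave 133 and 106, and with the replicate block added 129 and 104. The cause of these shifts was not tested. The correlation of the replicate differences was -0.03 across all 16004 genes and 0.03 across the 10701 better counted ones. The replicate block gave 15 called and 827 passing genes. With 2 libraries per treatment these values cannot decide whether the replicate numbers pair the samples. Direction reversed for SIN3A (-0.068 to 0.019 with a library left out, positive without E2+(2R,6R)-HNK replicate 1), EEF2 (-0.00014 to 0.066, adjusted p = 0.0119 in edgeR at its highest, without (2S,6S)-HNK replicate 2) and GPER1 (-0.55 to 0.058), the last 2 without (2S,6S)-HNK replicate 1, and for the interaction of SLC39A10 with the GC and length correction (0.12, and 0.12 with the replicate block). Of 88 named genes that passed, 35 did so in every alternative that gave an adjusted p. Of the 16 called genes, 9 had a mean under 1 CPM and 4 a mean of 1 to 5 CPM.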
